A study of Drosophila melanogaster with 3 samples.

Results

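B-H1 ChIP-seq regions that lie between genes, away from any promoter, were examined in whole Drosophila melanogaster embryos. Peaks of 3 biological replicates were merged where they overlapped on the 6 chromosome arms, and regions with peaks from 2 or more replicates were kept. A kept region was called distal intergenic when its summit lay over 1 kb from every annotated transcription start site (TSS) and outside every annotated gene. The rule left 193 regions of the 2084 that were kept, or 9.26%. The other 1891 regions comprised 1246 whose summit was TSS-proximal (within 1 kb), 618 distal regions in introns and 27 distal regions in exons. All embryos came from 1 strain, B-H1-GFP, a transgenic line with an insertion that expresses a B-H1-eGFP fusion, and were aged 8 to 24 hours by the source label. The age label itself holds an implausible hour count, which was set aside. Whether untagged B-H1 is also present is not given in the labels. The immunoprecipitation was described as anti-GFP, while the antibody label reads B-H1. The samples are whole organisms, so a peak averages over every cell type present, and fewer cells with B-H1 on a region cannot be told apart from less B-H1 in each cell. The replicates form 1 group with no control genotype. The labels point to a separate control experiment, not analysed here, and signal that depends on the tag, the antibody or open chromatin cannot be told apart from binding by B-H1.

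B-H1 and its neighbouring paralogue B-H2 encode homeodomain proteins of the Bar class. They are known for specifying external sensory organs, photoreceptors and the distal segments of the leg. Homeodomain proteins recognise short sites with a TAAT or related core, and much of the regulatory DNA of developmental genes in flies lies in enhancers at a distance from the promoter, in introns or between genes.

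The 6 regions of highest signal percentile found in 3 of 3 replicates, on arms whose sequence is shown here, are given as the bases from 100 before to 100 after the summit to show what the strongest sites look like. Sequences are the plus strand of Release 6 (dm6), and capitals mark the homeodomain 6-mers TAATTG, or TAATTA, or TAAACG on either strand. In the labels, farthest, middle and nearest rank the 3 regions printed here, of 4 in that gap upstream of chinmo. Of the 6, 2 held any such 6-mer, and the G+C content of the 6 windows ran from 24.9% to 38.8%. Over all distal intergenic regions, 36.3% held such a 6-mer within 200 bp centred on the summit.
chr2L:2202328-2202528 between COX7AL2 and CG31668: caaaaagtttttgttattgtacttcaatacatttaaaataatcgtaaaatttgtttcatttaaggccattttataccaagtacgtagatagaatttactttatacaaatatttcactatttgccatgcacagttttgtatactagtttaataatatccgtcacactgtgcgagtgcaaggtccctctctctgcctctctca
chr2L:1632733-1632933 between lncRNA:CR44603 and lncRNA:CR45695, upstream of chinmo, farthest of 3 regions: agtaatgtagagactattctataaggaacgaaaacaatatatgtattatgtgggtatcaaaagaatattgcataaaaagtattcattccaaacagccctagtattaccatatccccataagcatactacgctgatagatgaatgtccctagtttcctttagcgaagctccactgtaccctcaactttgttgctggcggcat
chr2L:1638694-1638894 in the same gap upstream of chinmo, middle of 3 regions: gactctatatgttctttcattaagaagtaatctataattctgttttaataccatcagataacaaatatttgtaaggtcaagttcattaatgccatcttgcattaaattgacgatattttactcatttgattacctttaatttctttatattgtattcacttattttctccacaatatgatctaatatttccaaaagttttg
chr3R:14053496-14053696 between tRNA:Ser-GCT-2-2 and foxo: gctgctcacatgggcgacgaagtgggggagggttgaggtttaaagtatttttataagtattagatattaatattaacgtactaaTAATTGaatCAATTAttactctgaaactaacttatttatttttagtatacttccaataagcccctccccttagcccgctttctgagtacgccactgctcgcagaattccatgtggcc
chr3L:781259-781459 between tRNA:Ile-TAT-1-2 and CG13898: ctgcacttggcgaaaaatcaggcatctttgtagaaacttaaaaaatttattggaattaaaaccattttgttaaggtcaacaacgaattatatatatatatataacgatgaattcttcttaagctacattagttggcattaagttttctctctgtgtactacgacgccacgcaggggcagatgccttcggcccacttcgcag
chr2L:1643364-1643564 in the gap upstream of chinmo, nearest of 3 regions: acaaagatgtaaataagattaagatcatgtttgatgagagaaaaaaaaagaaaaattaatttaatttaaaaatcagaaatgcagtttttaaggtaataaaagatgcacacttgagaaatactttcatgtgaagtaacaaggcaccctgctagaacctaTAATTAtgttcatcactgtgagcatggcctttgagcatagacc

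The next 4 are the highest-ranked regions that held a homeodomain 6-mer and neighboured a gene of a developmental list, with the same marks. The neighbours are dpr17 (a cell-surface immunoglobulin protein of the nervous system), aop (the Ets repressor Yan), bin (the forkhead factor biniou of the visceral mesoderm) and disco (a zinc finger factor). In each of the 4 the marked word is TAATTA.
chr3R:12121263-12121463 between dpr17 and CG4702: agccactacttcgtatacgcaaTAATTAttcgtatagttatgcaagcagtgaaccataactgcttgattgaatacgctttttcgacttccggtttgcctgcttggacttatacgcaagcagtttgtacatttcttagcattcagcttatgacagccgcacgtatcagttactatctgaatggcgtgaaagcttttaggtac
chr2L:2180121-2180321 between aop and lncRNA:CR43751: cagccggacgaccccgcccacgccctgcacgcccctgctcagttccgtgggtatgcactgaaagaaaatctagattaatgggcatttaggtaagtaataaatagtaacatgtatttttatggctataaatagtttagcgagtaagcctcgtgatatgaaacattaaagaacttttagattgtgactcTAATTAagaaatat
chr3L:6989193-6989393 between CG32388 and bin: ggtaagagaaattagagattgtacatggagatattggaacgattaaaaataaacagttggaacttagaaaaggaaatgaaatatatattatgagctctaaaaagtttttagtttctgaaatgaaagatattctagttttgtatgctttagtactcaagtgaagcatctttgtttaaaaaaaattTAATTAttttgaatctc
chrX:16263521-16263721 between snRNA:U2:14B and CG12507, with disco the nearest coding gene on the left: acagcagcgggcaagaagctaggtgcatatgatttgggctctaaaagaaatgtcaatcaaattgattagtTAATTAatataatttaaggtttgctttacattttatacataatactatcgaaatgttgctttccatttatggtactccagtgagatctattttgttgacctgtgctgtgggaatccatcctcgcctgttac

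The last region is shown for a word that the data brought up and that was chosen after values were seen. Capitals mark the 8-base word TCTCAGTG and its reverse complement. The region carries 2 copies, an inverted pair on either side of an A+T-rich centre, with each copy reading away from the summit.
chr2L:14502694-14502894 between lncRNA:CR45303 and lncRNA:CR45693: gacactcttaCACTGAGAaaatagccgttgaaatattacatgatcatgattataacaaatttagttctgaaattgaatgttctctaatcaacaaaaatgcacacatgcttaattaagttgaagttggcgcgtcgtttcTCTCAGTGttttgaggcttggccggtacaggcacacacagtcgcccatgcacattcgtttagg

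Of the 193 distal intergenic regions, 146 showed a peak in replicate 1, while 184 did in replicate 2 and 174 in replicate 3. A peak in 3 of 3 replicates was present for 118 of the 193, or 61.1%, beside 66.0% of all kept regions. The share was 61.3% in distal introns and 69.4% within 1 kb of a TSS. Without replicate 2 the rule gave 127 regions, with a peak in both others required. A further 209 intergenic regions over 1 kb from a TSS had a peak in 1 replicate only and were not kept. Of these, 127 came from replicate 2, whose list was the longest, with 3609 peaks on the arms against 1971 in replicate 1 and 2199 in replicate 3. The authors' conservative list, derived from all replicates together, overlapped 185 of the 193 regions, or 95.9%, against 94.6% of the other kept regions. The lists of the replicates share 1 input file of unstated role, so they are not fully independent, and no source used here gives read depth.

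Of the 75 distal intergenic regions with peaks in 2 replicates, 47 lacked one in replicate 1, 9 in replicate 2 and 19 in replicate 3. The authors' ranked lists hold peaks before the threshold, and they held an overlapping peak in the missing replicate for 68 of the 75, or 90.7%. The same lookup found 530 of 634 other kept regions with peaks in 2 replicates, or 83.6%. The −log10 of the global irreproducible discovery rate of those 68 peaks had a median of 0.634 and a highest value of 1.98. For the other kept regions the median was 0.846 and the highest value 1.999. Peaks looked up here had missed the thresholded list, so the highest value was limited in advance. The signal of the 68 peaks stood at a median percentile of 96.4 within the full ranked list, as did that of the other kept regions. The ranked lists are long, with 101546, 97966 and 72939 peaks on the arms in replicates 1, 2 and 3. How often a region would overlap such a list by chance was not tested. Regions with no ranked peak included the one of highest percentile of all, chr2R:13035224-13035461 between Su(z)2 (FBgn0265623, a Polycomb group relative of Psc) and CG13323. It stood at the 99.8th percentile in replicate 2 and the 99.3rd in replicate 3, and had no peak in replicate 1 even in the ranked list. The tenth-ranked region, chr3R:12402976-12403275 between Sol1 and Cyp9f2, was likewise absent from replicate 1, at the 96.6th percentile in replicate 2 and the 79.1st in replicate 3.

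Peak signal was compared as the percentile of the deposited signal within each replicate's own list on the arms. In replicates 1, 2 and 3 the median over the distal intergenic regions was 49.0, 65.6 and 48.1, against 56.8, 71.2 and 58.0 over the other kept regions. The regions between genes were thus lower in 3 of 3 replicates, by 7.77 ± 2.17 percentile points (SD, n = 3). An exact two-sided sign-flip permutation test over the replicates gave p = 0.25, the smallest that 3 replicates allow. Set against distal introns only, the difference was 0.691 ± 2.20 points with p = 1 in the same exact test. With regions under 250 bp wide left out of both sides, an alternative chosen after seeing the data, it was -3.76 ± 2.02 points (SD, n = 3). Distal introns had medians of 45.8, 66.4 and 48.4 in replicates 1, 2 and 3, and regions within 1 kb of a TSS had 63.1, 74.1 and 62.5. Regions over the 90th percentile made up 4.79%, 11.4% and 4.02% of the distal intergenic regions in replicates 1, 2 and 3, against 11.97%, 19.1% and 12.5% of the other kept regions.

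**Figure D1:**
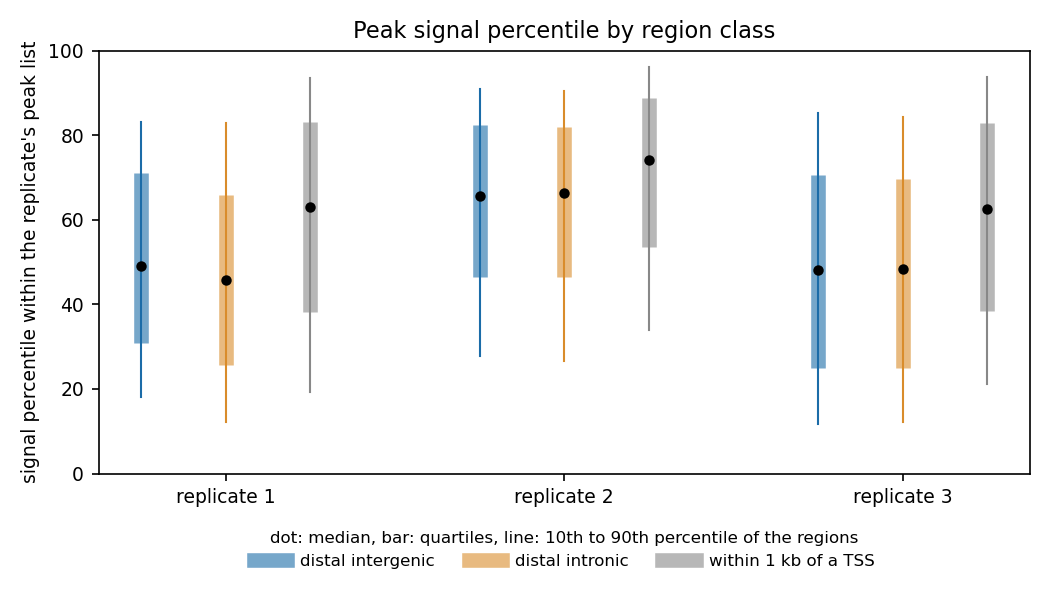
Signal percentile of the peaks in each replicate (vertical axis, percentile within that replicate's list) for distal intergenic, distal intronic and TSS-proximal regions. Dots are medians, thick bars quartiles and thin lines the 10th to 90th percentiles over regions; the distal intergenic medians of 49.0, 65.6 and 48.1 sit near those of distal introns and below those near a TSS.

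The mean percentile of a region was taken over the replicates with a peak, so a missing replicate did not lower it. The rank of a region with peaks in 2 replicates therefore depends on which replicate is missing. Over the 193 regions the mean percentile ran from 8.11 to 99.5, with a median of 50.05. The 118 regions in 3 of 3 replicates had a median of 60.4, and the 75 in 2 replicates had 35.1. Across the regions shared by each pair of replicates, Spearman's rho of the signal was 0.719 for replicates 1 and 2, 0.675 for 1 and 3 and 0.631 for 2 and 3, over 137, 127 and 165 regions that share their lists' common input. Within the 118, the SD of the percentile over the replicates had a median of 13.7 points. Replicate 2 gave the highest percentile in 85 of the 118, replicate 3 in 22 and replicate 1 in 11. Percentiles are taken within each list, and that of replicate 2 was the longest. Over all kept regions the median percentile was 55.94, 70.75 and 57.19 in replicates 1, 2 and 3, so this order is not particular to distal intergenic regions. Summits of the same region lay a median of 14 to 18 bp apart between replicates.

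A small set of narrow, strong peaks headed the list. Merged regions under 250 bp wide numbered 9 of 193, or 4.66%, against 11.6% of the other kept regions and 13.8% of those within 1 kb of a TSS. The 9 had mean percentiles from 79.4 to 99.5, with a median of 93.1, while the distal intergenic regions of 250 bp or more had a median of 48.7. Of the 10 regions with the highest percentile, 7 were under 250 bp wide. The narrowest, chr3L:10752734-10752853 between NijA (Ninjurin A, a membrane protein) and CG43245, measured 120 bp and stood at the 89.3rd, 91.1st and 86.1st percentiles in replicates 1, 2 and 3. Its 200 bp window had a G+C content of 19.0%, the lowest of all 193. With regions under 250 bp left out, the difference from the other kept regions was -3.76 percentile points, against -7.77 over all widths.

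The 15 regions of highest mean percentile with peaks in 3 of 3 replicates lay beside genes of varied function. The highest, chr2L:2202305-2202518, lay between COX7AL2 (FBgn0085201) and CG31668 (FBgn0051668), 3738 bp from a TSS, at the 93.3rd, 99.0th and 97.2nd percentiles in replicates 1, 2 and 3. The deposited signal there was 189, 442 and 274. The region chr2R:22802865-22803053 lay in a gap of 1340 bp between the facing 3' ends of blw (FBgn0011211, the ATP synthase alpha subunit) and CycB (FBgn0000405, cyclin B of the mitotic cycle), at 93.4, 97.2 and 95.2. The region chr3R:14053494-14053672 lay 3349 bp upstream of foxo (FBgn0038197, the forkhead factor of insulin signalling), at 91.2, 95.2 and 92.8. A second region in the same gap, also between tRNA:Ser-GCT-2-2 and foxo, stood lower, at 80.8, 67.3 and 39.9. The region chr3R:8355575-8355881 lay 1254 bp upstream of stck (FBgn0020249, the PINCH protein of integrin adhesions), in the gap shared with Atg13 (an autophagy gene), at 85.3, 91.2 and 85.3. Apart from that second region, each of these stood above the 85th percentile in 3 of 3 replicates.

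Others of the 15 included regions beside regulators of transcription. The region chr2L:3832352-3832658 lay between slp1 (FBgn0003430) and slp2 (FBgn0004567), the paired forkhead genes of embryonic segmentation, at the 85.5th, 90.2nd and 83.2nd percentiles. The region chr2R:12958083-12958382 lay between CG13321 and Psc (FBgn0005624, a subunit of Polycomb repressive complex 1), at 78.1, 94.2 and 86.4, and a second region lay in that gap. The region chrX:1277035-1277334 lay 1898 bp upstream of Atf3 (FBgn0028550, a bZIP factor), at 84.0, 93.3 and 76.9. The region chr2L:14502629-14502928, whose inverted words are printed above, had noc (a zinc finger factor) and CG33648 as its nearest coding genes and stood at 82.3, 93.1 and 85.2. The region chr2L:1433828-1433983 lay between the uncharacterised genes CG43401 and CG43402, at 80.2, 91.9 and 82.6. In these 5 the highest of the 3 percentiles was that of replicate 2, as in 85 of the 118 regions found in 3 of 3 replicates.

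The lowest mean percentiles belonged to chr3L:8153254-8153612 between CG13676 and CG42445 (8.11), chr3R:13794003-13794349 between lncRNA:CR45590 and tRNA:Phe-GAA-1-6 (9.42) and chr3L:10760157-10760461 between NijA and CG43245 (10.5). Each had peaks in 2 replicates. The last of them shares its gap with regions at mean percentiles of 88.8 and 87.3, so strong and weak regions lay side by side.

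The strongest cluster lay upstream of chinmo (FBgn0086758), which encodes a BTB zinc finger factor that controls the timing of neuronal fates. Its coding gap towards RFeSP held 7 distal intergenic regions. At 18.4 kb from the first chinmo TSS the region stood at percentiles of 95.05, 98.3 and 92.5 in replicates 1, 2 and 3. At 12.5 kb it stood at 95.8, 89.3 and 97.4, and at 7.79 kb at 96.6, 93.2 and 87.3. These 3 regions were all above the 87th percentile in 3 of 3 replicates. Closer in, the regions at 1928 and 1522 bp had mean percentiles of 76.4 and 79.4. A region at 17.0 kb stood much lower, at 5.96, 42.0 and 4.71, and the farthest, at 35.3 kb, had no peak in replicate 1 and stood at 53.4 in replicate 2 and 7.84 in replicate 3. The non-coding genes lncRNA:CR44603 and lncRNA:CR45695 divide this stretch, so most of these regions border a non-coding gene directly.

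**Figure D2:**
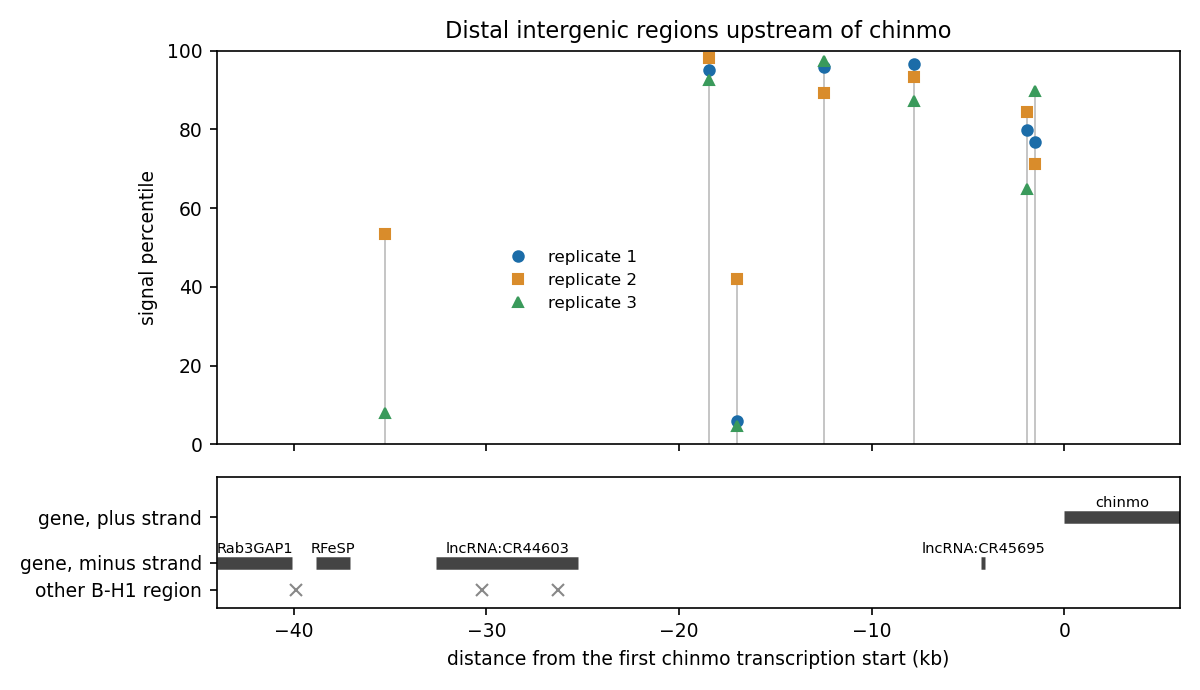
Signal percentile in each replicate (upper panel) of the 7 distal intergenic regions upstream of chinmo against distance from its first TSS in kb, with the annotated genes by strand and the other kept regions (crosses) in the lower panel. The regions at 18.4, 12.5 and 7.79 kb sit above the 87th percentile in 3 of 3 replicates.

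Gaps with sequence over 1 kb from every TSS numbered 4793, and 153 of them, or 3.19%, held a distal intergenic region. A single region was present in 128 gaps, and 25 gaps held 2 or more, which together accounted for 65 regions, or 33.7%. The gap that held the most was the 75047 bp between NijA and CG43245 on 3L, with 6 regions at mean percentiles from 10.5 to 88.8. Next came the 19063 bp between lncRNA:CR44363 and CG7560 on 3L, with 5 regions from 47.7 to 82.5, of which 3 lay within about 2 kb of each other. Each of 3 further gaps held 4. These were the gap between lncRNA:CR44603 and lncRNA:CR45695 described above, the gap between tRNA:Ile-TAT-1-2 and CG13898 with mean percentiles from 38.3 to 93.0, and the gap between scyl (a stress-responsive inhibitor of growth signalling) and lncRNA:CR44720 with 17.9 to 68.7. Of neighbouring regions on an arm, 18 pairs lay under 2 kb apart.

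Longer gaps held a region more often up to 40 kb. The share of gaps with a region was 1.40% up to 5 kb, 3.49% from 5 to 10 kb, 8.45% from 10 to 20 kb and 9.76% from 20 to 40 kb, and 4.63% beyond. Per Mb of eligible sequence the order was different, at 14.9, 6.66, 8.95, 4.91 and 1.12 regions for the same bins. Short gaps were therefore rarely occupied but densely so for the little eligible sequence they hold. Gaps whose flanking genes diverge, with both promoters facing inward, held 7.60 regions per Mb, tandem gaps 5.28 and convergent gaps 6.12. The median distance from a summit to the nearest TSS was 3738 bp, from 1031 to 33888 bp. That TSS belonged to a protein-coding gene for 130 regions, a non-coding RNA gene for 56 and a tRNA gene for 7. The summit lay upstream of it in 107 of 193.

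**Figure D3:**
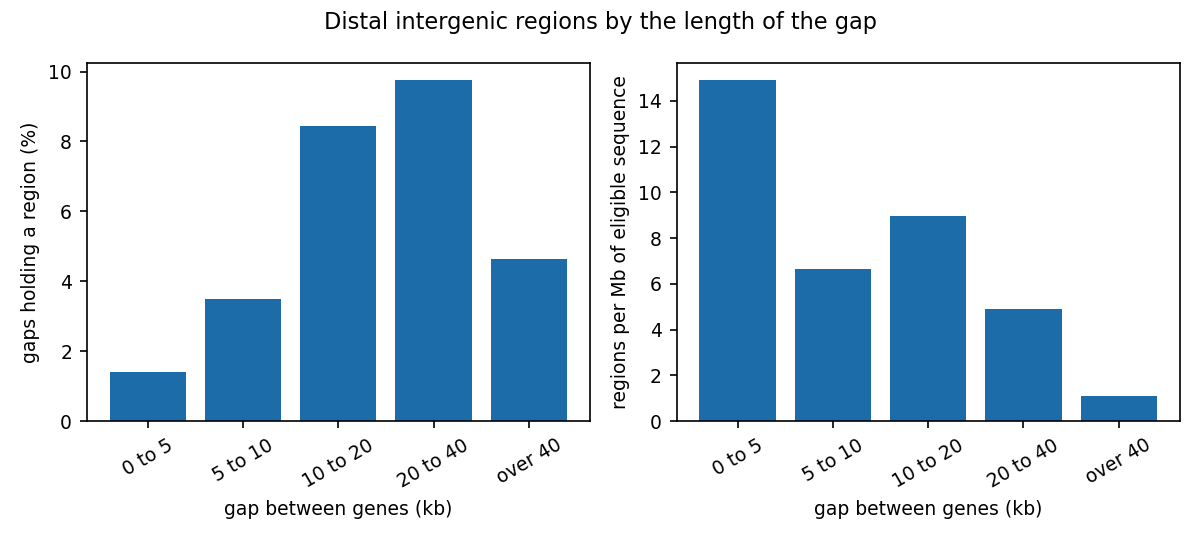
Share of gaps that hold a distal intergenic region in percent (left) and regions per Mb of sequence over 1 kb from a TSS (right), by the length of the gap between genes in kb. Occupancy is 9.76% in gaps of 20 to 40 kb, while the density is highest, at 14.9 per Mb, in gaps up to 5 kb.

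The farthest regions from a TSS lay in large gaps of 3L. The farthest, chr3L:6823881-6824195, lay 33888 bp from the TSS of vvl (FBgn0086680, a POU homeodomain factor needed for tracheal development), and was found in replicate 2 at the 67.2nd percentile and in replicate 3 at the 71.0th. The others were chr3L:10738590-10739132 and chr3L:10739687-10740187, at 33149 and 32032 bp from the TSS of CG43245. They stood at mean percentiles of 56.9 and 87.3 and were found in 3 of 3 replicates. The median mean percentile was 51.7 for regions up to 2 kb from a TSS, 47.2 from 2 to 5 kb, 49.1 from 5 to 10 kb and 47.6 from 10 to 20 kb. It was 69.1 for the 5 regions farther than 20 kb, of which 4 were found in 3 of 3 replicates. On either side of the 1 kb limit, 4 regions with summits up to 100 bp beyond it had mean percentiles from 17.7 to 84.0, and 4 intergenic regions up to 100 bp short of it, which the rule left out, had 60.2 to 83.5.

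Sequence outside genes and over 1 kb from a TSS made up 33.6 Mb, or 25.1% of the arms, and held 5.74 distal intergenic regions per Mb. The rest of the arms held 18.9 other kept regions per Mb. By arm the density was 7.54 per Mb on 2L, 4.47 on 2R, 7.68 on 3L, 4.84 on 3R and 3.07 on X, with 2 regions in the 0.218 eligible Mb of chromosome 4. The X thus had the lowest density of the arms for regions between genes, at 15 regions in 4.89 Mb. For the other kept regions X had the highest, at 21.7 per Mb, against 17.3 on 3R, 18.2 on 2R, 18.8 on 2L and 19.8 on 3L. Distal intergenic regions were 3.57% of the kept regions on X and 14.3% on 3L. Annotated transposable elements filled 11.4% of the eligible sequence, and 0 of the 193 regions overlapped one. The density outside them was 6.47 per Mb.

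Of the genes that directly border the 193 regions, counted once for each region,, 64.5% were protein-coding, 32.6% non-coding RNA genes and 2.59% tRNA genes. For all gaps with eligible sequence these shares were 78.7%, 18.5% and 0.919%. Both borders were protein-coding genes for 81 regions and non-coding for 25. For the gene lists, the nearest protein-coding gene on each side was therefore used. Of the 6127 protein-coding genes beside eligible sequence, 271 neighboured a region, or 4.42%. No region neighboured B-H1 or B-H2, and the nearest distal intergenic region lay 896741 bp from a B-H1 TSS.

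Segmentation and signalling genes had the highest share among the lists. Of 38 such genes beside eligible sequence, 13 neighboured a distal intergenic region, or 34.2%. They were slp1 and slp2, aop, sty (Sprouty, an inhibitor of receptor tyrosine kinase signalling), ptc (the Hedgehog receptor), the ligand genes dpp, wg, Wnt4, upd1, upd3, pyr and ths, and kni (a gap gene). The 11 regions beside them included chr2L:2180087-2180424 near aop at a mean percentile of 76.3 ± 11.5 (SD, n = 3). Another was chr3L:3382471-3382770, between Ids and lncRNA:CR45737, at 67.5 ± 10.5. It lay 4338 bp from the TSS of Ids and 35355 bp from that of sty, its nearest coding gene on the right. The region between Wnt4 and wg stood at 30.8 and the one between pyr and ths at 18.0, each from 2 replicates. These genes also border more eligible sequence, a median of 20.7 kb a gene against 1.99 kb over all genes, and per Mb of it they had 17.7 neighbouring regions against 5.90, with a region counted once for each gene beside it. The share was 13.2% with 3 of 3 replicates required, beside 2.92% of all genes, 18.4% without replicate 2 beside 3.12%, and 13.2% without replicate 3 beside 3.31%.

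Homeobox genes neighboured regions in 10 of 78 cases, or 12.8%, beside 4.42% of all genes, and at 6.24 regions per Mb of their eligible sequence, close to the 5.90 of all genes. The share was 7.69% without replicate 2, without replicate 3 and with 3 of 3 replicates required, beside 3.12%, 3.31% and 2.92% of all genes. Of their 13 regions, 3 lay in the gap beside vvl, with the highest, chr3L:6816276-6816593, at 77.8 ± 8.21. The other 9 genes were ems at 60.7 ± 14.8 (SD, n = 3), and Dr, abd-A, oc, toy, tup, zfh1, nub and C15. The last is a homeobox gene of the pretarsus, at the tip of the leg, next to segments where Bar genes are known to act, and its region stood at 48.2 from 2 replicates. Of 21 leg and antenna genes, 3 neighboured a region (drm at 62.9, disco at 55.6 and C15). Of 13 tracheal genes 3 did (kni, sty and vvl), and these are also members of the lists above. The shares were 14.3% for leg and antenna genes and 23.1% for tracheal genes, beside 4.42% of all genes. Per Mb of eligible sequence they had 5.26 and 17.7 neighbouring regions, beside 5.90 for all genes.

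The other developmental lists had 0 to 3 genes beside a region. Of 14 proneural and sensory organ genes, 1 (hry, the repressor Hairy) neighboured a region, at a mean percentile of 51.3. Of 21 Notch pathway and E(spl) complex genes, 2 did, on either side of 1 region at 67.6 ± 11.6 between E(spl)malpha-BFM and E(spl)mbeta-HLH. Among 28 muscle genes 3 did, all T-box genes (Doc1 and Doc2 with regions at 73.7 and 36.6, and mid at 57.9). These shares were 7.14%, 9.52% and 10.7%, beside 4.42% of all genes. Per Mb of eligible sequence the proneural list had 4.53 neighbouring regions, the Notch list 16.5 and the muscle list 11.9, beside 5.90 for all genes. Of 28 axon guidance genes, robo2 at 34.9 and drl at 24.1 did, of 48 genes of the Dpr, DIP, Beat and Side families dpr17 at 83.2 did, and of 16 gut and fat body genes bin at 64.6 did. In that order the shares were 7.14%, 2.08% and 6.25%, with 3.58, 0.788 and 6.62 neighbouring regions per Mb. Of 11 glial genes, 0 did. The synaptic list, which was not counted as developmental, had 2 of 45 genes beside a region, or 4.44%, beside 4.42% of all genes. These were ple (tyrosine hydroxylase) at 59.4 and nAChRalpha7 at 47.2.

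By share of genes, the chemoreceptor, cuticle protein, ribosomal protein and glycolysis lists stood below the 4.42% of all genes. Cuticle protein genes did so narrowly, at 4.225%. Chemoreceptor genes had 2 neighbours, or 1.98% (Gr89a at 61.3 and Or85b at 31.7), cuticle protein genes 3 of 71 (Cpr76Ba at 78.1, and Cpr65Eb and Cpr65Ec with 1 region at 50.8), ribosomal protein genes 1 of 34 (RpL22-like at 15.7) and glycolysis genes 0 of 6. Per Mb of eligible sequence, cuticle protein genes had 12.2 neighbouring regions, above the 5.90 of all genes, while chemoreceptor genes had 1.82 and ribosomal protein genes 1.80. Over all developmental lists pooled, 35 of 297 genes neighboured a region, or 11.8%, and per Mb of eligible sequence they had 6.77 neighbouring regions against 5.90 for all genes. Among genes beside over 20 kb of eligible sequence, 20.6% of developmental genes and 14.6% of all genes neighboured a region. Among those beside 10 to 20 kb the shares were 18.2% and 9.24%. From 5 to 10 kb the order was reversed, at 2.94% (1 of 34 developmental genes) and 3.74%. From 2 to 5 kb the shares were 4.545% (2 of 44) and 3.875%, and below 2 kb they were 1.61% (1 of 62) and 0.783%.

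**Figure D4:**
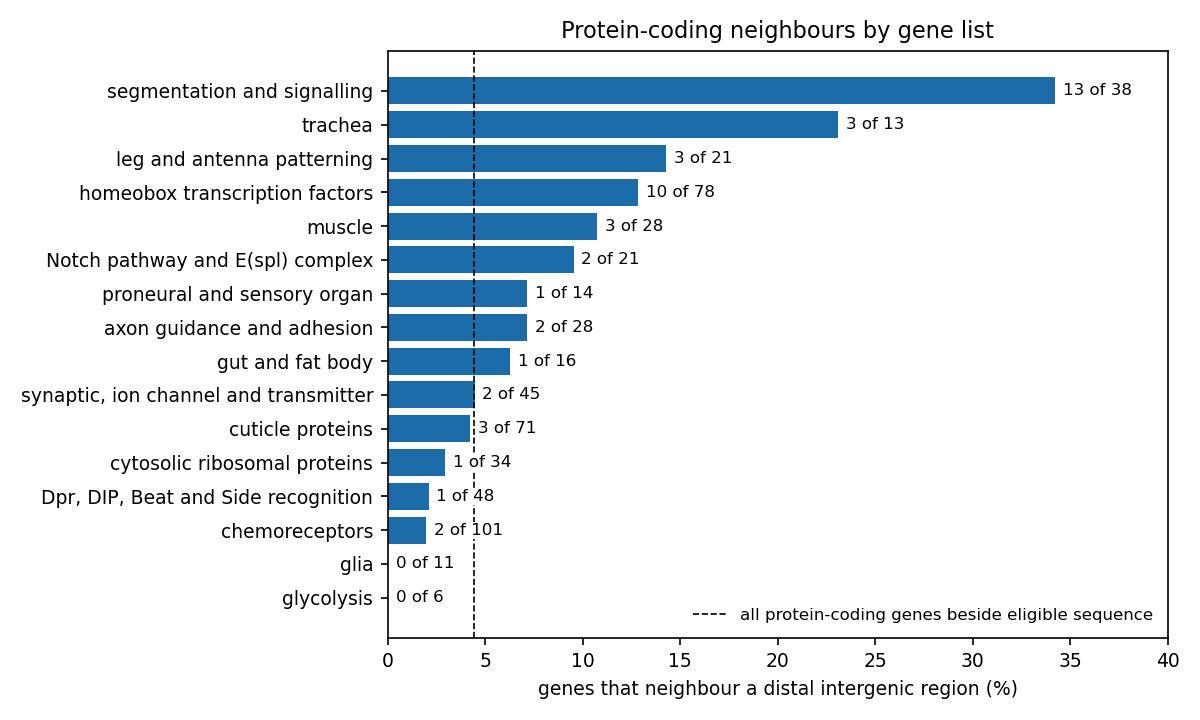
Share of the genes of each list, in percent of those beside eligible sequence, that are the nearest protein-coding gene to a distal intergenic region; numbers give genes of genes, and the dashed line marks the 4.42% of all such genes. Segmentation and signalling genes stand highest at 13 of 38, while cuticle, ribosomal, Dpr family, chemoreceptor, glial and glycolysis genes lie below the line.

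The homeodomain 6-mers, the words nearest to the site that Bar proteins recognise, stood at similar shares at these summits and around them. These shares make no allowance for the lower G+C content at the summits. At least 1 of TAATTG, or TAATTA, or TAAACG was found within 200 bp centred on the summit in 70 of 193 regions, or 36.3%. Windows of 200 bp centred 500 bp to either side had one in 36.0%, other kept regions in 39.3% and 200 bp tiles of all eligible sequence in 35.0%. Over all possible 6-mers, the median gain at summits over flanking windows was 16.8 percentage points for words with 0 G or C bases. It was 5.7 points with 1 such base and 0.959 with 2. Each of the 3 homeodomain words has 0 to 2 such bases and stood below the median for its composition. The cause was not tested. TAATTG was present in 18.7% of regions against 20.98% of flanking windows, TAAACG in 7.25% against 8.81% and TAATTA in 16.1% against 12.4%. At each replicate's own summits TAATTG was found in 15.8%, 18.5% and 19.5% of regions in replicates 1, 2 and 3, against 21.03%, 19.3% and 19.8% of other kept regions. The difference was -2.11 ± 2.75 percentage points (SD, n = 3; exact two-sided sign-flip permutation test, p = 0.25). It was -0.365 points without replicate 1 and -4.31 without replicate 3. The same exact test gave p = 0.25 for TAAACG (-2.51 ± 1.80 points, and -3.67 to -1.19 with 1 replicate left out) and p = 0.5 for TAATTA (-1.11 ± 2.13 points). The replicates share most of these regions and the same genome sequence. These SDs and p-values thus reflect shifts of summits and list membership, not the uncertainty of a share.

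Other words stood at different levels in the classes of regions. TATCGA, part of the DREF site of many promoters, was present in 6.22% of distal intergenic windows and 6.63% of distal intronic ones. It was in 13.9% of those near a TSS and 6.67% of tiles. Its share was lower than in the other kept regions in 3 of 3 replicates, with a difference of -5.46 ± 1.19 points. Against distal introns only the difference was -1.065 ± 0.912 points (SD, n = 3). GCATAC, part of the site of the insulator protein Su(Hw), was found in 12.5 ± 0.158% of windows against 8.52 ± 0.104% of other kept regions (SD, n = 3), and in 4.92% of flanking windows and 7.40% of tiles. The replicates count largely the same sequence, so these SDs are no measure of the uncertainty of a share. Distal introns had GCATAC in 10.5% of windows. Against them the difference was 2.39 ± 0.617 points, beside 3.975 ± 0.261 against all other kept regions. GAGAGA, the GAGA factor word, was at 14.5% against 8.29% of flanking windows, but its difference from other kept regions changed sign with 100 or 400 bp windows. ACAGTG was at 21.2% against 7.51% of flanking windows and 23.0% of other kept regions. The scrambled words (TTAGAT, plus ATTTAA, plus AACTAG) also stood above the flanking windows, at 15.03%, 47.7% and 9.33% against 7.77%, 25.4% and 4.40%. Exact sign-flip permutation tests over the 3 replicates gave p = 0.25 for TATCGA and for GCATAC, the smallest possible.

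Base composition changed over the same distances. The 200 bp windows had a mean G+C content of 34.8% at the summit and 41.8% at 500 bp, beside 41.0% in tiles of eligible sequence. By replicate the content at the summit was 34.5%, 35.3% and 35.1% in replicates 1, 2 and 3, against 33.5%, 34.8% and 34.6% in other kept regions, a difference of 0.676 ± 0.265 points (SD, n = 3; exact sign-flip permutation test, p = 0.25). As for the words, this SD reflects shifts of summits and list membership over largely the same sequence. Over all possible 6-mers, the 5 with the highest gain over the flanking windows were AAATAT, then AGTGTA, then AAAAAT, then AAATAA, then TTAAAA. The 4 made of A and T alone gained 25.1 to 26.8 percentage points, where the median over the 36 words of that composition was 16.8. AGTGTA stood out from its own class. It was in 33.8 ± 1.30% of regions and 7.56 ± 0.281% of flanking windows (SD, n = 3), a gain of 26.3 points, where the 492 words with 2 G or C bases had a median gain of 0.959 and the next highest, GAGAAA, gained 19.4. Distal intronic windows had AGTGTA in 23.5%, and those near a TSS in 14.4%.

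AGTGTA overlaps the end of a longer word, TCTCAGTG, that was chosen after values were seen. AGTGTA was in 65 of the 193 regions and TCTCAGTG in 25, so most regions with AGTGTA lacked the longer word. TCTCAGTG was found within 200 bp centred on the summit in 25 of 193 distal intergenic regions, or 13.0%, and in 2 of 386 flanking windows. Other kept regions had it in 4.28%, distal introns in 7.44%, regions near a TSS in 2.65% and tiles of eligible sequence in 0.680%. By replicate it was in 11.6%, 13.0% and 12.6% of regions, against 4.50%, 4.21% and 4.23% of other kept regions, a difference of 8.13 ± 0.879 points (SD, n = 3; exact sign-flip permutation test, p = 0.25). Set against distal introns alone the difference was 4.68 ± 1.24 points. Since the word was picked on these data, these values describe it and do not test it. The replicates also count largely the same sequence. Of the 4 bases before each copy of TCTCAGTG, the first 3 were mostly T, at 82.1%, 96.4% and 92.9%. The base next to the word was C in 60.7% and T in 39.3%.

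Within 100 bp of the summit the word had a set direction. Of 28 copies centred within 100 bp of a distal intergenic summit, 27 read away from the summit, with the T-rich side towards it, and 1 read towards it. The 27 lay at a median of 65 bp from the summit, with quartiles of 51.5 and 80 bp. The direction was the same elsewhere, with 48 of 51 copies reading away in distal introns at a median of 68.5 bp, and 33 of 35 near a TSS at 67 bp. These medians cover only copies within 100 bp, and more copies lay farther out in the other classes. From 100 to 125 bp on the reading-away side there were 1 in distal intergenic regions, 13 in introns and 7 near a TSS. From 125 to 150 bp there were 1, 5 and 7, over 193, 618 and 1246 regions. An inverted pair spanning the summit within 150 bp on each side was present in 3 distal intergenic regions, 5 in introns and 0 near a TSS. The copies of a pair lay 128 to 162 bp apart in the distal intergenic regions. With 1 free position, TCNCAGTG, the word was in 42 regions, or 21.8%, against 8.78% of other kept regions and 2.59% of flanking windows, with 46 of 51 copies reading away and an inverted pair in 11 regions at a median spacing of 140 bp. Carriers were not the strongest regions. Their mean percentile had a median of 41.5, against 50.7 in the regions without it, and 15 of the 25 were found in 3 of 3 replicates, against 61.3%.

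Regions that carried TCTCAGTG included the one between slp1 and slp2, the one between Ids and lncRNA:CR45737 at 67.5, and the one beside ems. Others were the one between Dr and CG7567, the one between pyr and ths, and 1 of the 6 between NijA and CG43245. The 9 narrow regions included 1 carrier, between CG43401 and CG43402, and the 3 strong regions upstream of chinmo had none.

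**Figure D5:**
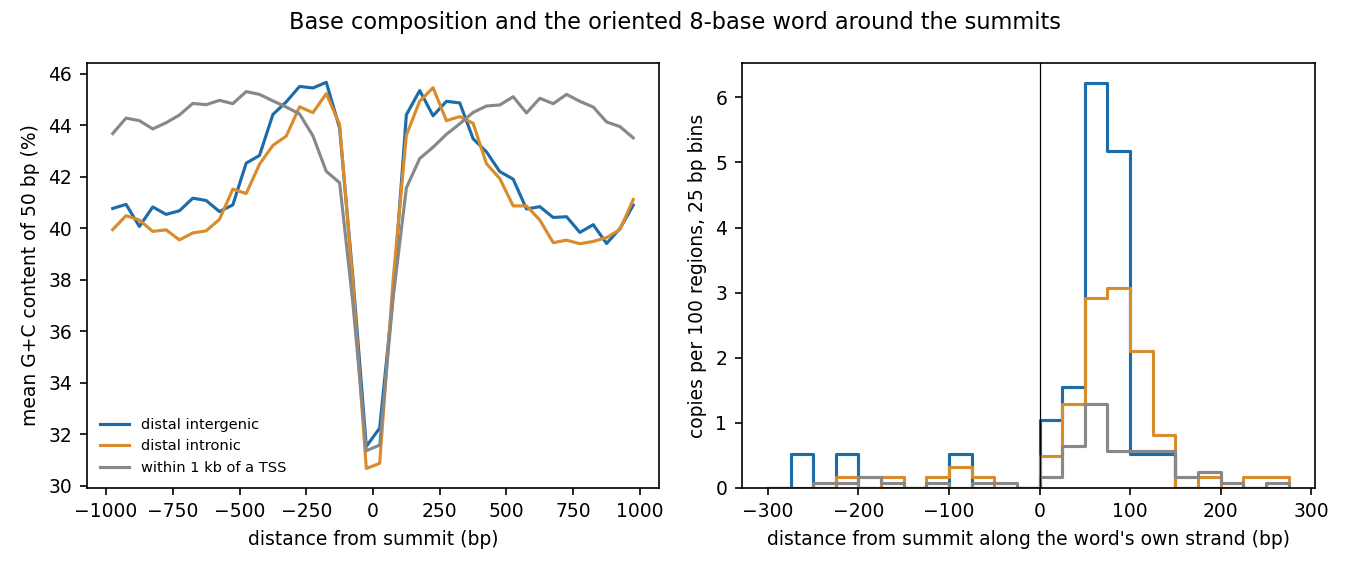
Mean G+C content in 50 bp steps against distance from the summit in bp (left), and copies of the 8-base word per 100 regions in 25 bp bins against distance from the summit along the word's own strand (right), for distal intergenic, distal intronic and TSS-proximal regions. The content falls at the summit in all 3 classes, and the copies gather on the positive side, where the word reads away from the summit. In distal intergenic regions the copies within 100 bp lie at a median of 65 bp.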

How the data were processed

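Transcription factor ChIP-seq of B-H1-eGFP was available for 3 biological replicates of 1 group. Per the file headers and labels, the authors deposited thresholded and ranked peak lists per replicate on dm6, each derived from that replicate's alignments and 1 file shared by all. Aligner, peak caller and read depth: not given in the sources used here. The peak signal that the authors deposited has no stated scale and was used only as a percentile within a list or, as an alternative, as log2 signal. The ranked lists hold the −log10 global irreproducible discovery rate deposited by the authors. A conservative list was used for its positions, and 32 columns of per-sample values in lists of the whole series matched no single replicate and were left aside.

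Peaks overlapping by 1 bp or more on the 6 arms were merged, and the summit was that of the peak with the highest percentile. Genes and TSSs came from Ensembl release 115 (13945 protein-coding genes, 23584 TSSs; transposable elements left out), and sequence from RefSeq's Release 6, the same build. Eligible sequence lies outside genes and over 1 kb from every TSS, and a gap is the stretch between adjacent genes. Windows of 200 bp were centred on summits and 500 bp to either side, and a 6-mer counted when present on either strand. Differences per replicate were tested with an exact two-sided sign-flip permutation test over 3 values, whose smallest p is 0.25, with no adjustment. For words and base composition the 3 values come from largely the same regions and genome sequence. The lists are described by counts beside the same over all genes, with no set test. There were 16 gene lists and 12 preset or scrambled 6-mers.

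Regions were named by rule: the 15 highest mean percentiles in 3 of 3 replicates, the 3 lowest, up to 3 beside each gene list, the gaps that hold the most and the 3 farthest from a TSS. Regions named outside it were chosen after their values were seen, among them ranks 1 and 10, those upstream of chinmo, between Wnt4 and wg and between pyr and ths, the second regions of the foxo and Psc gaps, further homeobox neighbours and carriers of the 8-base word. The members, lists and tests were chosen with earlier results of these data known. Merging, classes and tests were checked on simulated peaks in known places. Python 3.11.15 was used with pandas 2.3.3, NumPy 2.4.6 and SciPy 1.17.1.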

Additional observations from a re-analysis of the deposited data

How the results depend on the processing

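Read depth is unknown, so no region's absence from a list can be read as absence of signal, and the design cannot pass a test with 3 replicates. No paired analysis was possible because there is 1 group. The number of distal intergenic regions was 127 to 164 when 1 replicate was left out, the lowest without replicate 2, and 118 when 3 of 3 replicates were required. It was 193 with transposable elements counted as genes. The density per Mb was 3.78 to 4.88 with 1 replicate left out, 6.77 at 500 bp from a TSS, 4.82 at 2 kb, 6.79 with protein-coding genes only and 3.51 for 3 of 3 replicates. Genes beside a region numbered 179 for 3 of 3 replicates, 191 to 239 with 1 replicate left out and 202 as direct neighbours only, an alternative chosen after seeing the data, where segmentation and signalling genes had 29.7% and all genes 3.46%.

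The difference in signal percentile turned to 0.691 against distal introns only and kept its sign under the other alternatives, from -8.96 to -3.76 where it stayed on the percentile scale. The difference for TAATTA was 0.672 for 3 of 3 replicates and -1.91 to 0.628 with 1 replicate left out. That for ACAGTG was 3.03 for 3 of 3 replicates, 0.0206 on the conservative list, 2.26 in 100 bp windows and -1.90 to 3.06 with 1 replicate left out. CAGGTA gave -0.580 at 500 bp, -1.10 at 2 kb, -0.782 with protein-coding genes only, -0.622 for 3 of 3, -0.594 in 100 bp windows, -0.742 against introns and -0.510 to 0.853 with 1 replicate left out. GAGAGA gave -1.002 and -1.18 in 100 and 400 bp windows. AACTAG gave -0.399 for 3 of 3, -1.54 in 400 bp windows and -0.668 to 1.65 with 1 replicate left out. ATTTAA gave 0.726 against introns. The cause was not tested. TCTCAGTG ran from 2.43 points in 100 bp windows to 10.3 at 2 kb, GC content from 0.219 to 1.29 points, and the differences for TAATTG, for TAAACG, for TATCGA, for GCATAC kept their sign throughout.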
